A study of Homo sapiens with 16 samples.

Results

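The 9 genes described here act in human translesion synthesis, the copying of damaged DNA by specialised polymerases, or in steps tied to it. They are RAD18, HLTF, POLH, POLK, POLI, REV1, REV3L, MAD2L2 and PRIMPOL. They were chosen by name for their known roles, at a time when earlier results of these data were known. They are 9 of 60605 gene identifiers in the count tables. Each name matched 1 Ensembl identifier. The readout was PRO-seq, in which polymerases engaged on DNA in isolated nuclei add a labelled nucleotide so that nascent RNA can be sequenced. The cells were LNCaP, a long-established prostate cancer line with an active androgen receptor. The 16 libraries form 12 samples in 6 groups of 2 replicates each, in 2 batches.

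In batch 2 every group was treated for 90 min in serum-containing medium. The vehicle group received DMSO. The irradiated vehicle group received DMSO for 30 min, then 6 Gy of ionizing radiation, and was incubated for a further 60 min. The enzalutamide group received 10 µM enzalutamide, an androgen receptor antagonist used against prostate cancer. The enzalutamide plus IR group received the drug for 30 min, then 6 Gy and the same 60 min. In batch 1 the labels give mock cells and cells given 6 Gy, with no drug and no time of their own, and 2 libraries, called t1 and t2, under each replicate number. What t1 and t2 stand for is not given in the sources used here, so their counts were summed within a replicate. The labels do not say that replicates came from separate cultures, so p-values measure the spread between these samples, which may be technical.

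When a replicative polymerase stalls at a damaged base, the sliding clamp PCNA is tagged with ubiquitin by RAD18. The tag draws in polymerases with an open active site, among them POLH, POLK and POLI, which insert a nucleotide opposite the lesion, while REV1 acts as a scaffold and polymerase zeta, built on REV3L and MAD2L2, extends from the inserted base. HLTF extends the ubiquitin chain and remodels the fork, and PRIMPOL restarts synthesis beyond the lesion. POLH is also a known target of p53, the transcription factor that damaged cells activate, and its loss causes the variant form of xeroderma pigmentosum.

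The sequences upstream of 3 of the genes are shown because POLH and REV3L were the 2 members whose transcription rose after irradiation and RAD18, the ligase that starts the pathway, is set beside them as a member that did not pass the test. They come from RefSeq on GRCh38.p14, are written 5′ to 3′ on the strand of the gene named, and have GC boxes, GGGCGG read on either strand, in capitals. The POLH stretch, chr6:43576039-43576184 on the plus strand, is the whole interval of 146 bases between the divergent starts of POLH and XPO5. The REV3L stretch is chr6:111483712-111483961 on the minus strand, and the RAD18 stretch is chr3:8963473-8963722 on the minus strand, each the 250 bases before the annotated start.
POLH: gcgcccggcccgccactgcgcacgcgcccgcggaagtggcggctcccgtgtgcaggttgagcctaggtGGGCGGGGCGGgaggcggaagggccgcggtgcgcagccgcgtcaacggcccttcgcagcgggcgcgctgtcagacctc
REV3L: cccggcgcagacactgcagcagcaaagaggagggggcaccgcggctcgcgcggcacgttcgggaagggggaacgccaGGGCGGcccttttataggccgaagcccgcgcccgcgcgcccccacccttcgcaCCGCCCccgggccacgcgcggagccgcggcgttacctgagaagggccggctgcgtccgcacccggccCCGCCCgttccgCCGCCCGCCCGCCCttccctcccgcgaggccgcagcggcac
RAD18: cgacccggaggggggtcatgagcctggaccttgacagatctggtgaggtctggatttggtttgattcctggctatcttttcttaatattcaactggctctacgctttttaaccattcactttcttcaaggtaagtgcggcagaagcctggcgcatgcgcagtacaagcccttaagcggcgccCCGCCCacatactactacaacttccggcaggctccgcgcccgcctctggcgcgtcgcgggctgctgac
The POLH and REV3L stretches were 78.1% and 78.4% G or C and the RAD18 stretch 56.8%. Windows from 250 bases before to 50 after a start were searched for motifs on both strands at all 11 annotated starts of the 9 genes and at 35116 starts genome-wide. The GC box was found in 10 of the 11 windows, all but that of POLI, against 45% of all windows. The CCAAT box, CCAAT, was found in the windows of HLTF and MAD2L2, and the cell cycle homology region, TTTGAA, in those of HLTF and PRIMPOL, against 34.6% and 15.2% of all windows. The androgen response element half-site AGAACA was found in the window of REV1, against 14.8% of all windows. The p53 half-site, searched by its consensus, was found in 0 of the 11 and in 6.63% of all windows. A match is a description of these letters only.

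Depth was 3438642 to 9363458 counts per library in batch 1 and 10494563 to 19905824 in batch 2, and the 9 genes held between 215 and 3769 counts per sample. Levels are given as CPM, counts scaled to library size and composition within a batch. All 10 prostate and luminal markers looked for were detected, and the markers of other cell types together reached 17 to 28 CPM against 2940 to 3910 CPM for the prostate markers. CDKN1A and MDM2, p53 targets that serve as a check of the irradiation, rose in irradiated vehicle cells by 3.02 and 2.10 on the log2 scale. Libraries of batch 1 sorted by their label for POLH and REV3L but not for every member. For RAD18 the mock t1 libraries stood at 121 and 126 CPM and the irradiated t2 libraries at 127 and 135 CPM, while the mock t2 libraries stood at 95.3 and 79.1 CPM and the irradiated t1 libraries at 89.9 and 92.7 CPM. Batch 1 results for the members are therefore also given by kind of library.

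**Figure D1:**
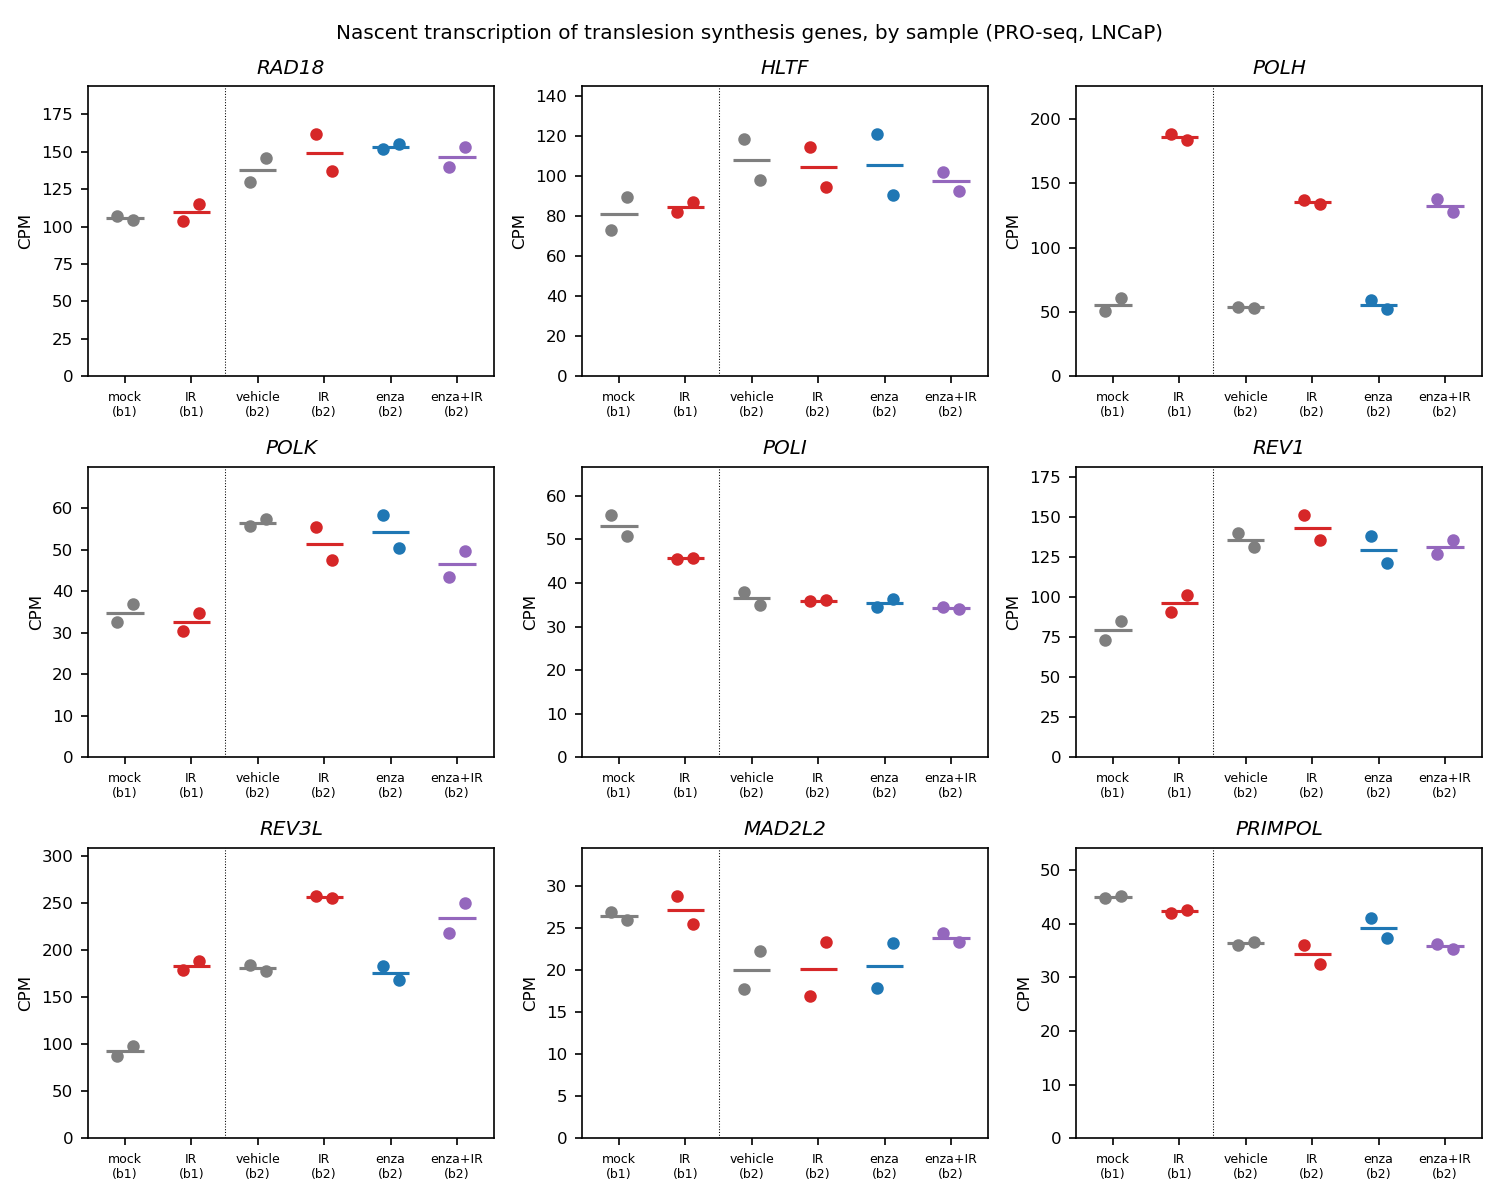
CPM of the 9 genes (y axis) in each of the 12 samples, by group (x axis), 1 panel per gene. Each point is 1 sample. For POLH the 6 irradiated samples lie between 127 and 188 CPM and the 6 others between 50.6 and 60.7 CPM.

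The first question was which translesion genes changed their transcription 60 min after 6 Gy. In vehicle-treated cells POLH and REV3L rose and the other 7 did not pass the test. POLH, which copies past ultraviolet and oxidative lesions, rose 2.53-fold, and REV3L, the catalytic subunit of polymerase zeta, rose 1.42-fold. Of the 9 members 2 were called higher and 0 lower by edgeR at an adjusted p under 0.05, against 0.743% called higher and 0.353% lower of all 28651 genes tested, 1.1% together. The median member changed by 0.00 on the log2 scale and the median gene by -0.01. All samples are bulk cultures, so fewer cells of a kind and less nascent RNA per cell cannot be told apart.

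RAD18, the ligase that tags PCNA, read 130 and 146 CPM in the vehicle samples and 162 and 137 CPM after irradiation. The ranges overlapped, and the difference was 0.11 ± 0.10 (log2, SE; edgeR adjusted p = 0.695). HLTF, which extends the ubiquitin chain, read 118 and 98.0 CPM before and 115 and 94.6 CPM after, with overlapping ranges and a difference of -0.05 ± 0.14 (edgeR adjusted p = 0.926). For both ligases replicate spread was larger than the difference between groups.

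POLH read 53.8 and 53.2 CPM in the vehicle samples and 137 and 134 CPM in the irradiated vehicle samples. Every irradiated sample lay far above every vehicle sample, and the 2 replicates of each group were close. The change was 1.34 ± 0.09 (log2, SE; 95% interval 1.14 to 1.54; edgeR adjusted p = 2.57e-06). The other Y-family inserters stood apart from it. POLK, which copies past bulky adducts on guanine, read 55.6 and 57.2 CPM before and 55.5 and 47.4 CPM after, a difference of -0.13 ± 0.11 (edgeR adjusted p = 0.678). POLI, a polymerase of low fidelity, read 37.9 and 35.0 CPM before and 35.8 and 36.1 CPM after, a difference of -0.02 ± 0.10 (edgeR adjusted p = 0.958). Neither POLK nor POLI passed the test, and their intervals lay within a 1.5-fold change in either direction.

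REV1, the scaffold, read 140 and 131 CPM before and 151 and 136 CPM after, with overlapping ranges and a difference of 0.08 ± 0.10 (edgeR adjusted p = 0.785). REV3L read 184 and 178 CPM before and 257 and 255 CPM after, with no overlap. The change was 0.50 ± 0.09 (log2, SE; 95% interval 0.30 to 0.70; edgeR adjusted p = 0.0156). Leaving out any 1 of the 4 vehicle or irradiated vehicle samples gave a REV3L change of 0.48 to 0.53 with adjusted p of 0.114 to 0.152, so with 3 samples it fell short of the threshold. MAD2L2, the partner that bridges REV3L and REV1, read 17.7 and 22.2 CPM before and 16.9 and 23.3 CPM after. It did not move with REV3L, at 0.00 ± 0.17 (edgeR adjusted p = 0.996). PRIMPOL read 36.1 and 36.6 CPM before and 36.1 and 32.6 CPM after, a difference of -0.08 ± 0.10 (edgeR adjusted p = 0.788). Group ranges failed to overlap upward for 2 members and downward for 2, which is near the 21.8% and 22.8% of all genes that did so.

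The second question was whether the same genes changed when cells carried enzalutamide at the time of irradiation. POLH read 59.4 and 52.0 CPM with enzalutamide alone and 137 and 127 CPM with enzalutamide plus IR, again without overlap. It rose by 1.24 ± 0.09 (log2, SE; 2.37-fold; edgeR adjusted p = 6.7e-06). REV3L read 183 and 168 CPM with enzalutamide alone and 218 and 250 CPM with enzalutamide plus IR. Both samples that received IR lay higher, and the difference was 0.41 ± 0.09 (edgeR adjusted p = 0.0699), short of the threshold. With the replicate number as a block, the REV3L difference was 0.41 with an adjusted p of 0.00168, and DESeq2 gave 0.42 with 0.0118, both past it. Those fits called 3.32% and 1.06% of all genes, against 0.918% in the main fit. REV3L passed in only 3 of 14 alternative fits of this comparison. Its difference ran from 0.31 to 0.53 when single samples were left out. The ligases did not pass. RAD18 read 152 and 155 CPM with the drug alone and 140 and 153 CPM with drug and IR, and HLTF read 121 and 90.7 CPM and then 102 and 92.4 CPM. Both overlapped, and both estimates were slightly below 0, at -0.07 and -0.13. Among the inserters POLK read 58.2 and 50.2 CPM and then 43.4 and 49.7 CPM, a difference of -0.22 ± 0.11 (edgeR adjusted p = 0.565), and POLI stayed between 34.1 and 36.4 CPM in all 4 samples. POLK thus lay lower in both irradiated samples without passing. REV1 read 138 and 121 CPM and then 127 and 136 CPM, a difference of 0.02 ± 0.10. MAD2L2 read 17.8 and 23.2 CPM and then 24.4 and 23.3 CPM, a difference of 0.23 ± 0.18 (edgeR adjusted p = 0.729). PRIMPOL read 41.1 and 37.4 CPM and then 36.3 and 35.4 CPM, a difference of -0.13 ± 0.10 (edgeR adjusted p = 0.729). POLH was thus the 1 member of 9 called higher, and 0 were lower, against 0.625% and 0.293% of all genes. Group ranges failed to overlap upward for 3 members and downward for 2, against 18.6% and 19.5% of all genes.

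Averaged over the drug, POLH changed by 1.29 ± 0.06 (edgeR adjusted p = 5.81e-09) and REV3L by 0.46 ± 0.06 (edgeR adjusted p = 0.000331), 2 of 9 members called higher and 0 lower against 2.8% and 1.91% of all genes, 4.71% together. The other 7 lay between -0.18 for POLK and 0.12 for MAD2L2. POLK had an unadjusted p of 0.0303 and an edgeR adjusted p of 0.18, which does not pass. All 7 intervals lay within a 1.5-fold change. The change of the IR response under the drug was -0.09 for POLH (95% interval -0.37 to 0.18) and -0.09 for REV3L (95% interval -0.37 to 0.19). For that change edgeR called 0 of 9 members and 0% of all genes. The largest was 0.23 for MAD2L2, with an interval up to 0.76. At an unadjusted p under 0.05 the count was 0 of 9 members and 343 genes, 1.2% of all genes, and DESeq2 also called 0 of the 9.

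**Figure D2:**
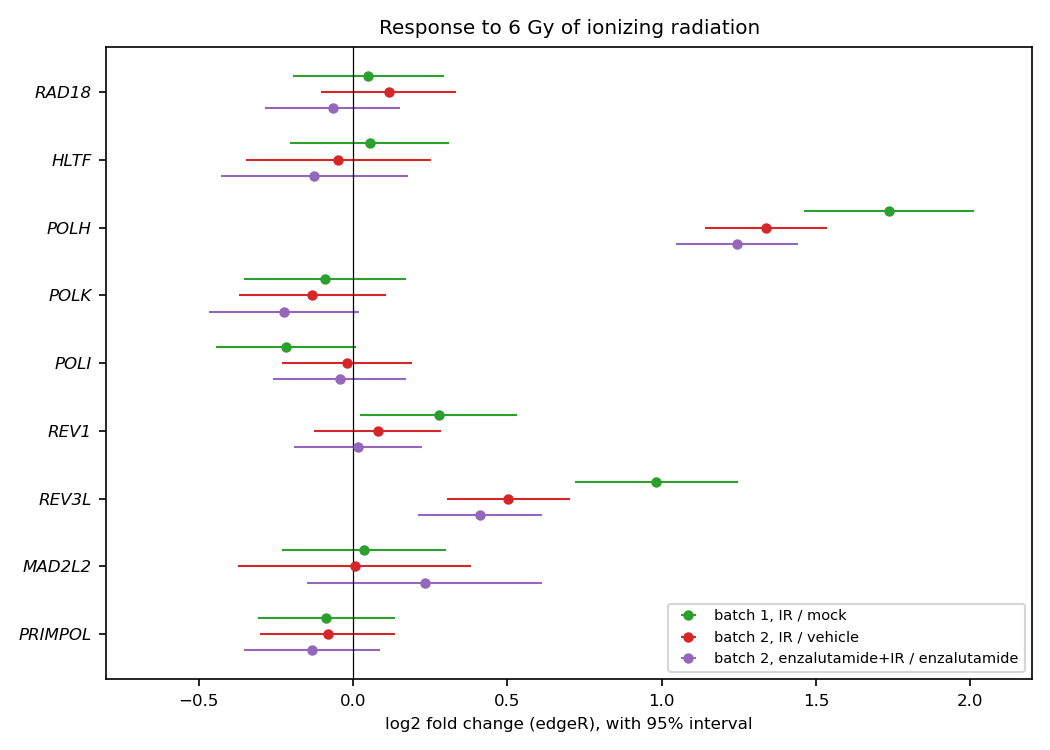
Log2 fold change after 6 Gy (x axis) of each of the 9 genes (y axis) in vehicle, under enzalutamide and in batch 1, from edgeR. Points are estimates and bars are 95% intervals. POLH lies between 1.24 and 1.74 and REV3L between 0.41 and 0.98 in the 3 comparisons.

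Batch 1 repeated the contrast without drug vehicle labels. POLH read 50.6 and 60.7 CPM in mock samples and 188 and 184 CPM after 6 Gy, with no overlap. It rose by 1.74 ± 0.13 (log2, SE; 3.33-fold; edgeR adjusted p = 4.9e-06). REV3L read 87.5 and 98.1 CPM in mock samples and 179 and 188 CPM after 6 Gy, also with no overlap. It rose by 0.98 ± 0.12 (1.98-fold; edgeR adjusted p = 0.000373). These were 2 of 9 members called higher, with 0 lower, against 2% and 0.819% of the 25889 genes tested. Ranges failed to overlap upward for 3 members and downward for 2, against 20.3% and 19.7% of all genes. REV1 read 73.3 and 85.2 CPM in mock samples and 91.0 and 101 CPM after 6 Gy, a difference of 0.28 ± 0.12 (edgeR adjusted p = 0.369). With the replicate number as a block REV1 kept 0.28 and its adjusted p was 0.0112, past the threshold. That fit called 9.01% of all genes, against 2.82% in the main fit. POLI read 55.5 and 50.7 CPM before and 45.6 and 45.7 CPM after, a difference of -0.22 ± 0.10 (edgeR adjusted p = 0.47). The POLI samples did not overlap, but the difference did not pass. RAD18, HLTF, POLK, MAD2L2 and PRIMPOL lay between -0.09 and 0.05. RAD18 read 107 and 105 CPM before and 104 and 115 CPM after, HLTF 73.1 and 89.5 CPM and then 81.9 and 87.0 CPM, and POLK 32.6 and 36.9 CPM and then 30.5 and 34.7 CPM. MAD2L2 read 26.9 and 25.9 CPM and then 28.7 and 25.5 CPM. In these 4 the groups overlapped, while PRIMPOL, at 44.9 and 45.1 CPM and then 42.1 and 42.6 CPM, lay slightly lower in both irradiated samples.

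Library by library, POLH and REV3L were the only members whose 4 irradiated libraries all lay above the 4 mock libraries. POLH ran from 44.0 to 67.6 CPM in mock libraries and from 149 to 215 CPM in irradiated ones. REV3L ran from 81.0 to 110 CPM and from 158 to 216 CPM. For 6 of the 9 members, RAD18, HLTF, POLK, REV1, MAD2L2 and PRIMPOL, the irradiated to mock ratio had opposite signs in t1 and in t2 libraries. The share of all genes with such opposite signs, or with the library separation above, was not computed. Both counts therefore only describe these libraries. REV1 gave -0.24 in t1 and 0.80 in t2 on the log2 scale of CPM, RAD18 -0.44 and 0.59, HLTF -0.36 and 0.51, POLK -0.54 and 0.42, and PRIMPOL -0.31 and 0.16. MAD2L2 ran the other way, at 0.62 and -0.50, and POLI was below 0 in both, at -0.10 and -0.29. With t1 libraries alone edgeR called 4 members, POLH, REV3L and MAD2L2 higher and POLK lower, in a fit that called 17.3% of all genes. With t2 libraries alone it called 8, all but PRIMPOL, with POLI and MAD2L2 lower, in a fit that called 44.7% of all genes. Both shares far exceed that with the libraries summed, so these member counts are not a result about the members. POLH kept a change of 1.60 with t1 and 1.9 with t2, and REV3L 0.67 and 1.33. Batch 1 therefore gives a direction that holds in both kinds of library for POLH, REV3L and POLI, of which POLI did not pass the test with the libraries summed.

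**Figure D3:**
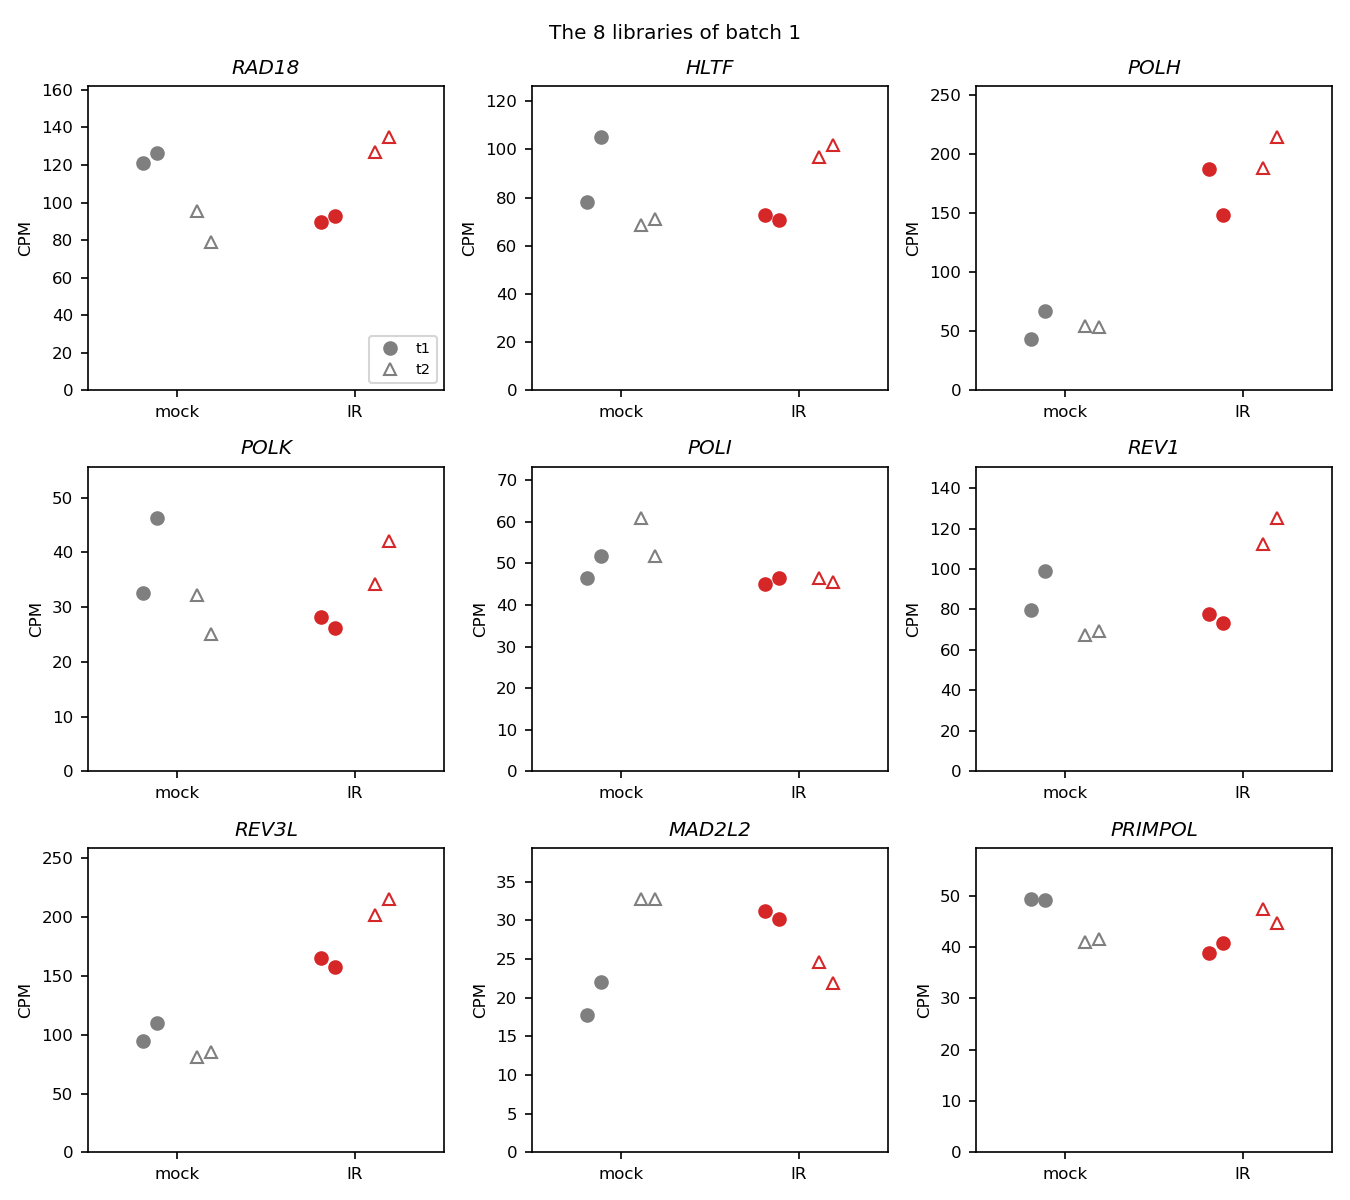
CPM of the 9 genes (y axis) in each of the 8 batch 1 libraries, with t1 and t2 libraries apart, 1 panel per gene. Each point is 1 library. Irradiated libraries of POLH (149 to 215 CPM) and REV3L (158 to 216 CPM) lie above all mock libraries.

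Over both batches POLH rose by 1.52 ± 0.09 (edgeR adjusted p = 2.75e-10) and REV3L by 0.72 ± 0.09 (edgeR adjusted p = 1.4e-05), again 2 of 9 members called higher and 0 lower against 2.39% and 1.66% of genes, 4.05% together. The median member changed by 0.01 on the log2 scale and the median gene by -0.02. The irradiation change in batch 1 minus that in batch 2 was 0.37 ± 0.15 for POLH and 0.46 ± 0.15 for REV3L. Neither difference passed, with unadjusted p of 0.0236 and 0.00726 and edgeR adjusted p of 0.813 and 0.681. edgeR called 0 of 9 members for this difference, against 0.0548% of genes with the larger change in batch 1 and 0.0514% with the smaller, 0.106% together. With t2 libraries alone it called 6 members, REV3L at 0.83 and POLH at 0.57 among them, in a fit that called 20.3% of all genes, and with t1 libraries alone the REV3L difference was 0.14. For MDM2 the irradiation change in batch 1 minus that in batch 2 was estimated at 0.89 to 1.07 when single samples were left out. Those fits leave 1 sample in a group, so only the size is given. The labels of batch 1 give no time after irradiation. Batch, that time and the handling of vehicle cannot be told apart in this comparison.

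The third question was whether 10 µM enzalutamide alone changed these genes within 90 min. None of the 9 was called by edgeR without irradiation, with it or averaged, where 0.0105%, 0.0105% and 0.0628% of all genes were called. At an unadjusted p under 0.05 the count was 0 of 9 in each of the 3 comparisons, against 2.56%, 3% and 6.21% of all genes. DESeq2 called 0 of the 9, against 0.0454%, 0.0244% and 0.202% of all genes. Without irradiation the members lay between -0.06 for REV1 and 0.15 for RAD18 on the log2 scale. RAD18 read 130 and 146 CPM with vehicle and 152 and 155 CPM with enzalutamide, and its interval ran from -0.06 to 0.37. All 9 intervals lay within a 1.5-fold change. Ranges failed to overlap upward for 2 members, RAD18 and PRIMPOL, and downward for 0, against 14% and 12.4% of all genes. After irradiation 8 of 9 intervals lay within a 1.5-fold change, the exception being MAD2L2 at 0.25 with an interval of -0.13 to 0.63. MAD2L2 read 16.9 and 23.3 CPM in irradiated vehicle samples and 24.4 and 23.3 CPM in enzalutamide plus IR samples, so its ranges overlapped and its replicates spread widely. Ranges there failed to overlap upward for 0 members and downward for 3, against 16.4% and 15.5% of all genes. Averaged over irradiation the members lay between -0.10 for POLK and 0.13 for MAD2L2, with all 9 intervals within 1.5-fold.

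**Figure D4:**
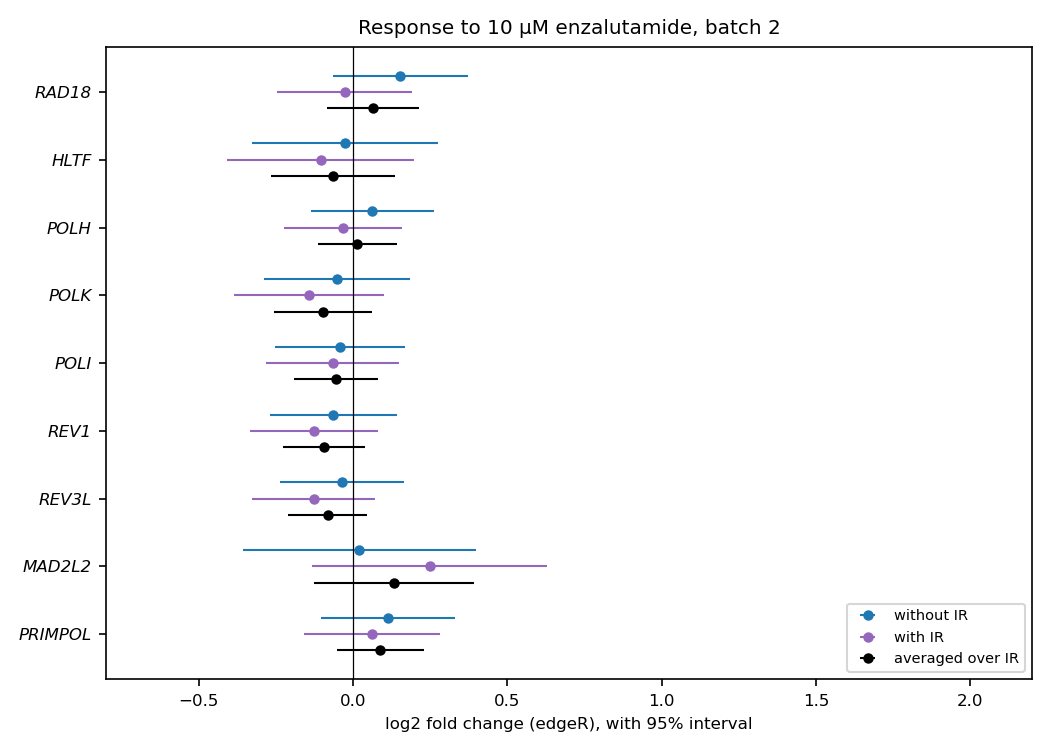
Log2 fold change with 10 µM enzalutamide (x axis) of each of the 9 genes (y axis) without irradiation, after 6 Gy and averaged over both, from edgeR. Points are estimates and bars are 95% intervals. All estimates lie between -0.14 and 0.25.

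Levels between genes were compared as CPM per kilobase of the RefSeq gene span, called density here. Which part of a gene was counted is not given in the sources used here. Densities of genes of unlike length, and shares and ratios made from them, therefore compare only roughly. In vehicle cells the order was HLTF at 1.92, RAD18 at 1.60, REV1 at 1.51, POLH at 1.21, MAD2L2 at 1.15, REV3L at 0.978, PRIMPOL at 0.804, POLI at 0.704 and POLK at 0.569 CPM per kb. The neighbours RAD18 and REV1, and POLH and MAD2L2, overlapped between replicates. POLH came first in each of the 3 irradiated groups, at 3.05 in irradiated vehicle cells, 2.99 with enzalutamide plus IR and 4.19 in irradiated batch 1 cells. No other member overlapped with it there. In mock cells of batch 1 MAD2L2 at 1.52, HLTF at 1.44, POLH at 1.26 and RAD18 at 1.22 came first, each overlapping with the next, and POLK was last in every group. REV3L, whose span of 184.679 kb is the longest of the 9, had a density of 0.503 in mock cells and 0.978 in vehicle cells.

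Within the 3 Y-family inserters POLH, POLK and POLI, the POLH share of the summed density was 48.6% ± 0.354 (SD, n = 2) in vehicle and 71.6% ± 0.566 in irradiated vehicle cells. It was 50.4% ± 1.77 with enzalutamide and 72.5% ± 1.70 with enzalutamide plus IR, and 47.6% ± 3.82 in mock and 77.6% ± 0.707 in irradiated batch 1 cells. The share of POLH was thus higher in both irradiated samples than in both unirradiated ones of each pair of groups. Drug alone moved it little, from 48.4% and 48.9% in the vehicle samples to 51.7% and 49.2% in the enzalutamide samples. Within polymerase zeta, REV3L density per unit of MAD2L2 density was 0.974 and 0.75 in vehicle and 1.43 and 1.03 in irradiated vehicle samples. It was 0.306 and 0.356 in mock and 0.585 and 0.694 in irradiated batch 1 samples. With enzalutamide it was 0.967 and 0.682, and with enzalutamide plus IR 0.84 and 1.01, so there the ranges overlapped.

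**Figure D5:**
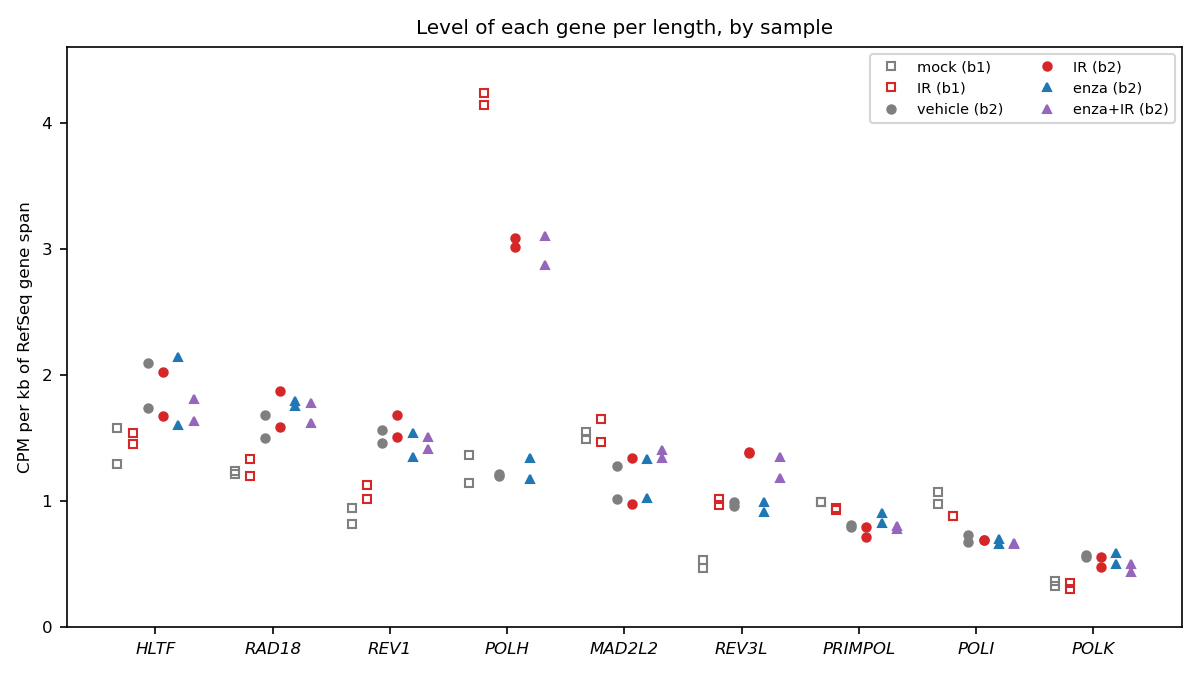
CPM per kb of gene span (y axis) of the 9 genes (x axis) in the 6 groups. Each point is 1 sample, with batch 1 (b1) as open squares and batch 2 (b2) filled, and there are no error bars. POLH is the densest member in the 3 irradiated groups, at 2.99 to 4.19 CPM per kb.

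POLH occupies chr6:43576185-43620523 on the plus strand and REV3L chr6:111299033-111483711 on the minus strand of GRCh38.p14. RAD18 lies at chr3:8877075-8963472 and HLTF at chr3:149030063-149086533, both on the minus strand. POLK lies at chr5:75510774-75609991, POLI at chr18:54269479-54321266 and PRIMPOL at chr4:184649738-184694952 on the plus strand. REV1 lies at chr2:99400477-99490202 and MAD2L2 at chr1:11674480-11691830 on the minus strand. In the RefSeq annotation used, 14 genes overlapped a member or started within 2 kb of a member start on the opposite strand. Of these 11 had at least 1 count and 9 could be tested over both batches. Whether counting used strand is not given in the sources used here, so reads in overlaps cannot be assigned for certain. XPO5, which exports precursor microRNAs from the nucleus, starts 147 bases from POLH on the opposite strand. XPO5 read 78.4 and 83.6 CPM in vehicle, 102 and 97.0 CPM in irradiated vehicle, 41.3 and 50.6 CPM in mock and 65.3 and 63.2 CPM in irradiated batch 1 samples. Its change was 0.30 ± 0.09 in vehicle (edgeR adjusted p = 0.182), which did not pass, and 0.37 ± 0.08 over both batches (edgeR adjusted p = 0.00467), which did. With t1 libraries alone the latter was 0.09 with an adjusted p of 0.705. POLH changed more than its divergent neighbour in every one of these comparisons, but that difference was not tested.

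TRAF3IP2-AS1, an antisense RNA that overlaps the 5′ end of REV3L by 240 bases, read 51.4 and 52.5 CPM in vehicle and 101 and 96.3 CPM in irradiated vehicle samples. It rose by 0.92 ± 0.09 (edgeR adjusted p = 5.98e-05). In batch 1 it read 58.0 and 58.4 CPM in mock and 174 and 164 CPM in irradiated samples and rose by 1.54 ± 0.11 (edgeR adjusted p = 6.02e-06), with 1.84 in t1 and 1.24 in t2 libraries. TRAF3IP2, the gene it is named for, was added after values were seen and did not pass, at 0.05 in vehicle (edgeR adjusted p = 0.878) and 0.26 in batch 1 (edgeR adjusted p = 0.303). GTPBP2, which overlaps the end of POLH by 30 bases, fell by 0.33 over both batches (edgeR adjusted p = 0.0317). Under DESeq2 the GTPBP2 adjusted p was 0.0952, and GTPBP2 passed in 2 of 8 fits that left out a single sample, with adjusted p of up to 0.242. None of the other neighbours tested passed over both batches, among them CERT1, DRAXIN, EIF5B, CENPU and GYG1.

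A list of 30 other genes of damage tolerance held PCNA modifiers, replicative polymerases and fork factors. After irradiation in vehicle 1 was called higher and 0 lower, against 0.743% and 0.353% of all genes. The gene called was PCNA, the clamp itself. It read 45.6 ± 1.61 CPM (SD, n = 2) in vehicle and 82.6 ± 11.1 CPM after, a change of 0.86 ± 0.10 (edgeR adjusted p = 0.000515). The list's median was 0.08 on the log2 scale, with 23 of 30 above 0 against 49.1% of all genes. In batch 1 it was 0.05, with 17 of 30 above 0 against 49.6% of all genes. Under enzalutamide PCNA rose by 0.80 (edgeR adjusted p = 0.00122), again alone, where 0.625% of all genes were called higher. In batch 1 PCNA rose by 0.84 (edgeR adjusted p = 0.0173), also alone, where 2% were. The batch 1 mock samples of PCNA spread widely, at 124 and 186 CPM, and both irradiated samples stood at 278 CPM. The batch 1 change of PCNA was 1.17 in t1 and 0.41 in t2 libraries, both past the threshold (edgeR adjusted p = 0.00316 and 0.0173). Those fits called 17.3% and 44.7% of all genes, so passing in them is not a result about PCNA. Averaged over the drug 3 of 30 were called higher, against 2.8% of all genes: PCNA, UBE2B, the ubiquitin-conjugating partner of RAD18, at 0.24 (edgeR adjusted p = 0.0317), and POLD1, the catalytic subunit of polymerase delta, at 0.25 (edgeR adjusted p = 0.0435). UBE2B and POLD1 did not pass when libraries were scaled by total counts, at adjusted p of 0.0507 and 0.074, and each passed in 1 of 8 fits that left out a single sample. Over both batches PCNA and DTL, a substrate receptor that acts on PCNA-bound proteins, were called higher. These were 2 of 30, against 2.39% of all genes. DTL was at 0.31 (edgeR adjusted p = 0.0121), and at 0.00 with t1 libraries alone (adjusted p = 0.998). Leaving out vehicle replicate 4 or irradiated vehicle replicate 3 gave DTL adjusted p of 0.0652 and 0.0656. With enzalutamide 0 of the 30 were called without irradiation, with it or averaged, against 0.0105%, 0.0105% and 0.0628% of all genes. An unadjusted edgeR p under 0.05 was found for 0 of the 30, against 2.56%, 3% and 6.21% of all genes.

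The genes whose levels followed those of POLH most closely over the 12 samples, centred within batch, were ACER2, PPM1D and FRMPD2, with Pearson's r of 0.999, 0.995 and 0.994. Among 18674 genes compared the 99th percentile of r with POLH was 0.95. For REV3L they were ANKRD20A5P, PLD5P1 and ASTN2, at 0.989, 0.988 and 0.984, with a 99th percentile of 0.932. The first 2 of these are pseudogenes, whose reads may come from near-identical copies. Samples of POLH and REV3L fall into an irradiated and an unirradiated set, so their r mainly records that step, and all 12 points share batch and depth with every gene compared.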

How the data were processed

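PRO-seq was done on LNCaP cells, 16 libraries in 2 batches. The authors deposited 1 table of raw read counts per Ensembl gene for each batch, as its whole numbers and unequal library totals show. Per the submitters' processing notes cutadapt 1.8.1, Bowtie2 2.4.4 and SAMtools 1.9 were used with hg38. The counting tool, the annotation, the use of strand and the removal of duplicates are not given in the sources used here. Names came from a table that matched 60463 of 60605 identifiers.

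Libraries t1 and t2 were summed. Genes were filtered with filterByExpr, scaled by TMM and tested with edgeR 4.0.16 (R 4.3.3, quasi-likelihood), with Benjamini-Hochberg adjustment over all genes tested and a threshold of 0.05. Comparisons within a batch fitted all groups of that batch together. Averages over drug or irradiation came from an additive fit of both factors in batch 2. Tests over both batches used the groups without enzalutamide, with a term for batch. The difference between batches was the interaction of batch and irradiation in those groups. Intervals are 95%. Tests were run first on simulated data. Same-numbered replicates deviated together weakly (r 0.102 to 0.262 over 6 pairs of groups in batch 2, 0.198 in batch 1). The main tests held no term for the replicate number and were not paired. The number entered only in the alternative called the replicate block. Replicates differed by more than counting noise, so each was counted as 1 sample. Alternatives were RLE factors, total counts, no filter, DESeq2 1.42.0, the replicate block, each kind of library alone and each sample left out. The members and lists were chosen with earlier results of these data known. The named genes are the members, their annotated neighbours, list genes that passed, and the 3 genes most like POLH, REV3L and RAD18, of which those for RAD18 are not reported here.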

Additional observations from a re-analysis of the deposited data

How the results depend on the processing

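POLH was called in every alternative of all 5 irradiation comparisons, at 1.16 to 1.9 on the log2 scale. The number of members called after irradiation in vehicle was 2, and 1 to 2 when single samples were left out. After irradiation under enzalutamide it was 1, and 2 with no filter on low counts, with DESeq2 and with the replicate block, under which REV3L was at 0.41 with an adjusted p of 0.00168. The main fit called 0.918% of all genes there, and those alternatives called 1.01%, 1.06% and 3.32%. In batch 1 it was 2, 4 with t1 libraries alone and 8 with t2 libraries alone, where 2.82%, 17.3% and 44.7% of all genes were called. For the difference between batches it was 0, and 6 with t2 libraries alone, where 20.3% of all genes were called. The replicate block changed 1 further member call, REV1 in batch 1 (0.28, adjusted p = 0.0112), in a fit that called 9.01% of all genes, and no other.

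With 1 kind of library some directions turned. XPO5 in batch 1 was 0.48 (edgeR adjusted p = 0.0463) and -0.10 with t1 libraries. POLK in batch 1 was -0.09, and 0.42 with t2 libraries. MAD2L2 in batch 1 was 0.04, and -0.51 with t2 libraries. The RAD18 difference between batches was -0.09, and 0.47 with t2 libraries. The cause was not tested. Of 1086 member values called in neither fit, 98 changed sign.

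Counts over all genes moved more than member counts. After irradiation in vehicle 314 genes were called, 161 without irradiated vehicle replicate 4 and 1315 with the replicate block. Under enzalutamide the count was 263, and 139 to 951. Averaged over the drug it was 1349, and 611 to 4307. In batch 1 it was 731, with 3995 in t1 and 9800 in t2 libraries. Over both batches it was 1182, and 657 to 1954. For the difference between batches it was 31, and 5646 with t2 libraries. For enzalutamide it was 3 without irradiation, with 74 when low counts were kept, 3 with irradiation, with 64 when low counts were kept, and 18 averaged, with 272 under the replicate block. For the change of the irradiation response under the drug it was 0, and 32 when low counts were kept. With 2 replicates a group, small changes were not detectable, least of all in batch 2 those of MAD2L2 and HLTF, which had the widest intervals there.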

Other observations

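The unirradiated cells of the 2 batches share neither vehicle label nor library layout, so batch and handling cannot be told apart, and no test was made. Of the 9 members 5, RAD18, HLTF, POLK, REV1 and REV3L, were higher in both vehicle samples than in both mock samples, and 3, POLI, MAD2L2 and PRIMPOL, were lower. Over all genes 40.1% and 35.7% were separated in these directions, so the members are not apart from the rest in this. REV3L read 92.8 ± 7.52 CPM (SD, n = 2) in mock cells and 181 ± 4.26 CPM in vehicle cells, and POLI read 53.1 ± 3.39 and 36.5 ± 2.08 CPM. POLH alone overlapped, at 55.7 ± 7.13 and 53.5 ± 0.445 CPM. These levels are scaled within each batch.

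REV3L-IT1, named as an intronic transcript of REV3L, held 1 to 19 counts per sample, and POLH-AS1, named as antisense to POLH, held 0 to 5. Neither is in the RefSeq table used for neighbours. Both are too few to follow, and both were looked up after the values of REV3L and POLH were known.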
